A study of Homo sapiens with 12 samples.

Results

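The circadian clock genes PER1, PER2, PER3, CRY1, CRY2, ARNTL, CLOCK, NR1D1, NR1D2 and DBP were examined across 12 RNA-seq libraries of MG63 cells, an established human osteosarcoma line. They are the 10 rows of the deposited count table, of 50868 genes in all, whose gene name was on this list, and all 10 passed the filter on low counts that left 17717 genes for testing. The libraries form 4 groups of 3, all grown in DMEM with 10% FBS and 1% P/S. Cells received 1 µM anticarin-beta, a compound that the labels give by name only, or its vehicle and were taken for RNA after 18 hours. In the other experiment, cells were transfected with CCT4-specific siRNA or with Allstar control siRNA and collected after 2 days. CCT4 belongs to the ring-shaped chaperonin in which actin and tubulin are folded. No clock time of treatment or collection is given and each group was collected at 1 time, so the values are levels at that time and not rhythms. The labels do not say whether replicates came from separate cultures. Each p-value thus sets a difference between groups against the spread of these samples, which may be technical only.

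The clock of a mammalian cell is a loop of transcription. CLOCK and ARNTL, which is also called BMAL1, bind as a pair to E-box sequences and switch on the PER and CRY genes, whose proteins come back to the nucleus and block that pair. NR1D1 and NR1D2, the nuclear receptors REV-ERB alpha and beta, are switched on through the same E-boxes and repress ARNTL, while DBP is a transcription factor made at the output of the loop that acts on D-box sequences. Osteoblast-lineage cells carry such a clock, and PER1 can also be induced by outside signals through the transcription factor CREB.

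Total counts ranged from 13393750 to 17492095 per library, and 3 counts, used as the floor of detection in 1 library, correspond to 0.160 to 0.277 CPM, counts scaled to a common library size. All levels are CPM, with library sizes scaled by the TMM method. Library numbers are the replicate numbers of the labels. The cell line was checked against markers of its type. COL1A1, COL1A2, SPARC, RUNX2 and ALPL of the osteoblast lineage were above the floor in every library. Among late markers SPP1, IBSP and SP7 never exceeded 0.268 CPM, and BGLAP was low, at 0.298 to 2.26 CPM. Of 5 epithelial markers KRT8 (37.5 to 55.6 CPM) and KRT18 (66.9 to 126 CPM) were high in every library, KRT5 and EPCAM reached 1.33 and 0.335 CPM, and CDH1 was at 0 in 10 libraries. Of the blood markers CD3E and HBB were at 0 in all 12 libraries and PTPRC reached 2.13 CPM. The endothelial markers PECAM1 (1.66 to 14.4 CPM), CDH5 (0.444 to 4.94 CPM) and VWF (0.107 to 0.924 CPM) had counts in every library. PCR reads are not independent molecules, so the floors made from counts cover counting error only. The intervals of fold changes given below come from the test between groups and include the spread between libraries.

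The E-boxes of the members are shown first, because they are the sequence through which the loop is known to act. RefSeq windows of GRCh38.p14, each running from 250 bases before to 50 bases after an annotated start of transcription, were available for all 10 members, in 15 windows, with ARNTL listed under its newer symbol. The letters CACGTG (the canonical E-box) or CACGTT (a variant known from the mouse Per2 promoter) were searched on both strands. They occurred in 7 of the 15 windows (46.7%), against 12.2% of 35116 windows of all genes, and belonged to 7 members: PER1, PER2, CRY1, CRY2, CLOCK, NR1D1 and NR1D2. Below, each of the 8 matches is given on the strand of its gene with 12 bases on either side, the match in capitals; AACGTG is the variant read from the opposite strand.
PER1, chr17:8152560-8152589, minus strand: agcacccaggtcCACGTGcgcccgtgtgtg
PER2, chr2:238288790-238288819, minus strand: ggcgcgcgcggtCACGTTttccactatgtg
CRY1, chr12:107093621-107093650, minus strand: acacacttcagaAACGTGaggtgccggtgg
CRY2, chr11:45847275-45847304, plus strand: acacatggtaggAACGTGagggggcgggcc
CLOCK, chr4:55546102-55546131, minus strand: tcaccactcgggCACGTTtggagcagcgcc
NR1D1, chr17:40100740-40100769, minus strand: gcgcaagagctcAACGTGccggctgttgga
NR1D2, first match, chr3:23945954-23945983, plus strand: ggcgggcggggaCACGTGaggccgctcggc
NR1D2, second match, chr3:23946004-23946033, plus strand: gggccgcagggaCACGTGggggcgggggcg

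The matches lay 89 (CRY1) to 197 (PER2) bases before the start. PER1 and NR1D2 held the canonical letters, and NR1D2 held them at 2 places, 155 and 105 bases before the start of that window. The D-box letters TTANGTAA occurred in windows of PER2, PER3 and NR1D2 and in 2.18% of all windows; the AGGTCA half-site of ROR and REV-ERB proteins occurred in PER1, CRY2 and ARNTL and in 13.8% of all windows. The cAMP response element TGACGTCA lay in the window of 0 members and in 1.85% of all windows. CRY2, CLOCK and NR1D2 each have another window, at another annotated start, without E-box letters. The NR1D2 window with its pair of E-boxes is given in full for the 250 bases before its RefSeq start (chr3:23945871-23946120, plus strand), together with that of PER2 (chr2:238288611-238288860, minus strand). Capitals mark the E-box letters in both and, in NR1D2, the D-box letters as read from the opposite strand. The D-box match of PER2 begins 3 bases before the RefSeq start and runs past the stretch shown, so it is not marked.
NR1D2: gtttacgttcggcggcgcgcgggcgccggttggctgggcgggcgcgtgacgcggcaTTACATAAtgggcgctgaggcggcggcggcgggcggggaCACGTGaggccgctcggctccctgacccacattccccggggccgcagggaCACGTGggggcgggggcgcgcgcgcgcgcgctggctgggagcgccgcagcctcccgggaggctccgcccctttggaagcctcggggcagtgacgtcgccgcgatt
PER2: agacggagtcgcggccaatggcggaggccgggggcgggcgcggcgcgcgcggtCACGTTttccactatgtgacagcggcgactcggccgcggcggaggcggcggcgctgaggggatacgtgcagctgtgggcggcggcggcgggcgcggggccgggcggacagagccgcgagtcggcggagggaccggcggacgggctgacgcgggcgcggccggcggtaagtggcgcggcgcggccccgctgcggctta

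A letter match describes the sequence only and says nothing of what was bound in these cells. ARNTL and DBP had no E-box letters in their windows, and neither had PER3. Sequence outside the windows, farther upstream or inside the genes, was not searched for any of the motifs.

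CCT4 mRNA was read first, since it checks the siRNA labels. It stood at 201, 199.6 and 216 CPM in the libraries labelled CCT4 siRNA, against 186, 160.2 and 185 CPM with control siRNA, a log2 fold change of 0.22 ± 0.09 (SE; edgeR adjusted p = 0.129). The label was thus not matched by a lower CCT4 level, so the siRNA results are worded by label. CCT4 with anticarin-beta averaged 82.3 ± 8.49 CPM and with vehicle 236 ± 22.9 CPM (SD, n = 3 each).

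With anticarin-beta 9 of the 10 clock genes were higher than with vehicle and 0 were lower, by edgeR's quasi-likelihood test at a Benjamini-Hochberg adjusted p under 0.05 over all genes tested. The background is wide: 34.9% of all genes tested were called higher, 38% lower and 73% in either direction. In size, 6 of 10 were more than 4-fold higher, against 8.38% of all genes. The members were chosen with earlier results of these data known, so this comparison is a description and not a test. Their median log2 fold change was 2.27, beside −0.06 over all genes tested. Values of the 3 libraries did not overlap between the groups for 9 members, and for 74.6% of all genes. As these are bulk libraries, fewer cells of a type and less RNA per cell cannot be told apart. Scaling moves where no change lies: with library totals alone the median of all genes was −0.48, and 4292 genes were called higher and 8959 lower in place of 6186 and 6740. Under that scaling the same 9 members were still called higher. The summed osteoblast-lineage markers ranged from 11269.6 to 11703 CPM with anticarin-beta and from 6519.6 to 8089.8 CPM with vehicle, without overlap. The other summed lists overlapped. The epithelial was at 146.8 to 169 CPM with anticarin-beta and 131 to 156 CPM with vehicle. The blood list, PTPRC alone, was at 1.26 to 2.13 CPM with anticarin-beta and 0.48 to 1.28 CPM with vehicle. The endothelial was at 6.28 to 8.12 CPM with anticarin-beta and 6.34 to 8.45 CPM with vehicle. Its 3 genes did not overlap singly and moved in opposite directions. PECAM1 was lower with anticarin-beta (1.66 to 2.68 CPM) than with vehicle (3.94 to 5.03 CPM). CDH5 was higher with anticarin-beta (3.69 to 4.94 CPM) than with vehicle (2.23 to 3.05 CPM). VWF was higher too, at 0.84 to 0.92 CPM against 0.11 to 0.37 CPM. The part of the markers in the result was not tested.

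**Figure D1:**
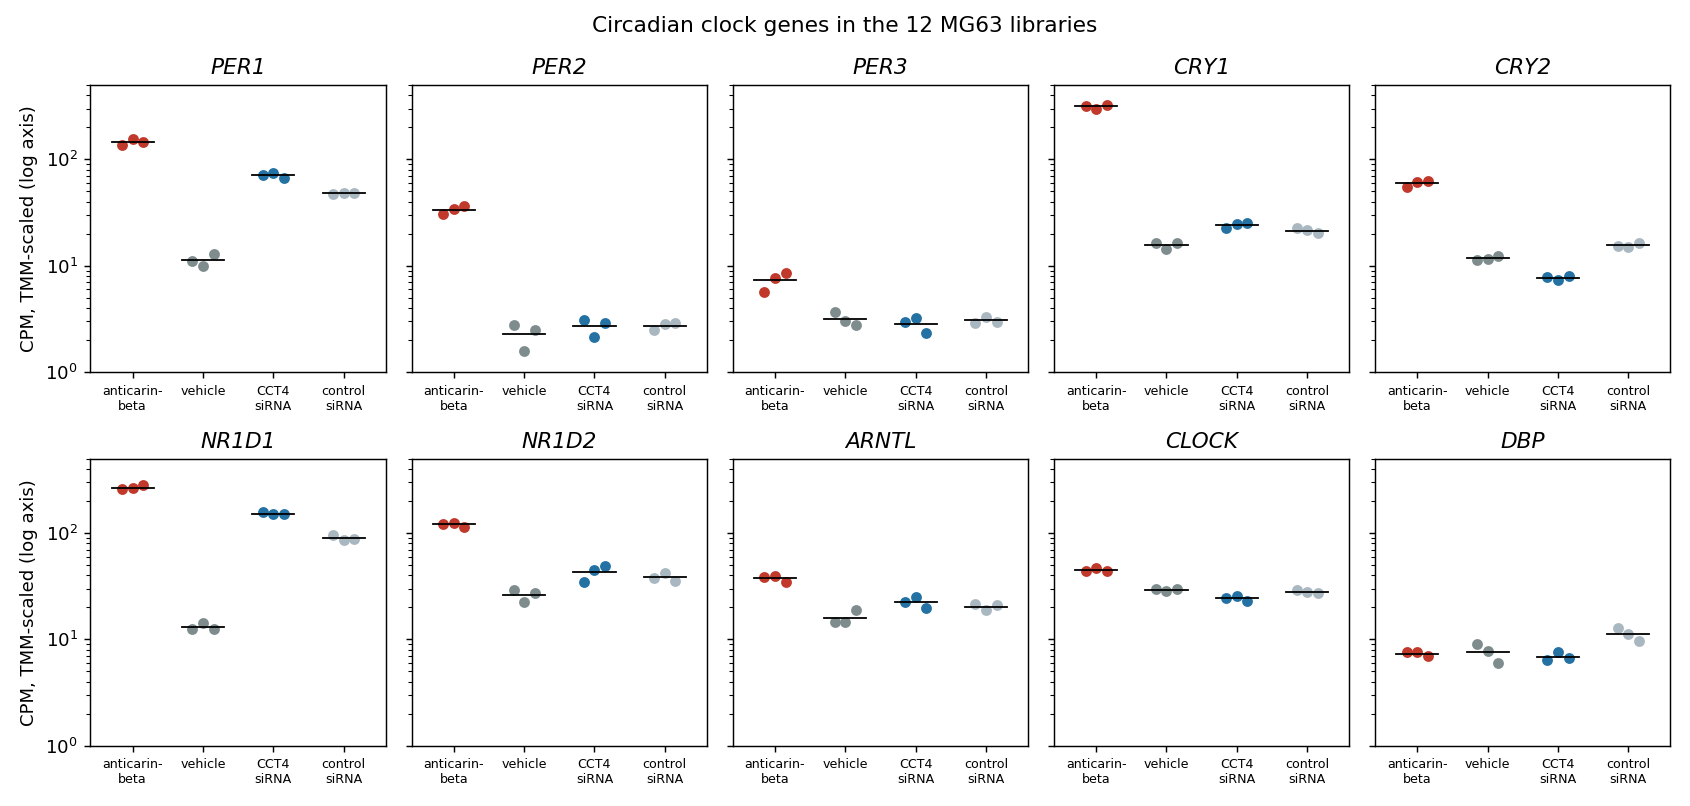
Level of each clock gene in every library, in TMM-scaled CPM on a log axis shared by all panels. Points are the 3 libraries of a group and the line is their mean. The anticarin-beta libraries lie above the vehicle libraries for all genes shown except DBP, and PER1 and NR1D1 are also higher in the libraries labelled CCT4 siRNA than with control siRNA.

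The PER genes encode the proteins that, together with CRY, block CLOCK and ARNTL. PER1 (ENSG00000179094, chromosome 17, 8140472 to 8156506, minus strand, GRCh38) was at 135, 155 and 145 CPM with anticarin-beta, against 11.0, 9.89 and 12.8 CPM with vehicle. The groups lay far apart, at 12.9-fold (log2 fold change 3.68 ± 0.10, SE; edgeR adjusted p = 1.61e-11). PER2 (chromosome 2, 238244038 to 238290102, minus strand) reached 30.4, 33.7 and 36.6 CPM with anticarin-beta, against 2.77, 1.57 and 2.46 CPM with vehicle, where it rested on 26 to 52 counts per library. It was 14.7-fold higher (3.88 ± 0.19, edgeR adjusted p = 1.85e-09), and no treated library came near the vehicle values. PER3 (chromosome 1, 7784320 to 7845177, plus strand), the PER gene least needed for rhythms in mice, was at 5.70, 7.58 and 8.53 CPM with anticarin-beta and at 3.68, 3.02 and 2.78 CPM with vehicle. It was 2.30-fold higher (1.20 ± 0.19, edgeR adjusted p = 0.000104), with no overlap and with 50 to 102 counts in each of these libraries. The 95% interval of its log2 fold change, 0.78 to 1.62, lay below those of PER1 (3.47 to 3.90) and PER2 (3.46 to 4.30), which overlapped each other.

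CRY1 and CRY2 are the other arm of the block, and CRY1 is the stronger repressor in mouse cells. CRY1 (chromosome 12, 106991364 to 107093829, minus strand) was at 319, 295 and 326 CPM with anticarin-beta, against 16.3, 14.2 and 16.3 CPM with vehicle. That is 20.1-fold higher (log2 fold change 4.33 ± 0.09, SE; edgeR adjusted p = 2.08e-12), a change exceeded by 1.20% of all genes tested. CRY2 (chromosome 11, 45847118 to 45883248, plus strand) was at 54.8, 61.2 and 62.4 CPM with anticarin-beta and at 11.3, 11.6 and 12.4 CPM with vehicle, 5.05-fold higher (2.34 ± 0.09, edgeR adjusted p = 1.78e-10). The log2 ratio of CRY1 to CRY2 within a library, which no scaling can change, averaged 2.40 ± 0.14 with anticarin-beta and 0.40 ± 0.11 with vehicle (SD, n = 3 each), so CRY1 gained on CRY2 in every treated library.

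NR1D1 and NR1D2 encode the repressors of ARNTL. NR1D1 (ENSG00000126368, chromosome 17, 40092787 to 40100725, minus strand) had the largest change of the 10 genes. It was at 259, 264 and 280.3 CPM with anticarin-beta and at 12.4, 14.3 and 12.5 CPM with vehicle, 20.5-fold higher (4.36 ± 0.08, SE; edgeR adjusted p = 1.33e-12). Of its 2772 exonic bases, 263 are shared with THRA, the thyroid hormone receptor gene on the opposite strand, and whether counting used strand is not given in the sources. THRA moved the other way, at 43.5 ± 3.14 CPM with anticarin-beta and 83.6 ± 5.64 CPM with vehicle (SD, n = 3 each). NR1D2 (chromosome 3, 23945260 to 23980618, plus strand) was at 122, 126 and 115 CPM with anticarin-beta, against 29.1, 22.6 and 27.2 CPM with vehicle, 4.59-fold higher (2.20 ± 0.13, edgeR adjusted p = 7.48e-09). The log2 ratio of NR1D1 to NR1D2 averaged 1.15 ± 0.12 with anticarin-beta and −1.0 ± 0.30 with vehicle. NR1D2 thus had more counts than NR1D1 in each vehicle library, and NR1D1 had more in each anticarin-beta library.

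The activators had moderate changes. ARNTL (chromosome 11, 13276652 to 13387266, plus strand), the target of both NR1D genes, was at 38.5, 39.2 and 34.9 CPM with anticarin-beta and at 14.6, 14.7 and 18.9 CPM with vehicle. It was 2.33-fold higher (log2 fold change 1.22 ± 0.12, SE; edgeR adjusted p = 1.54e-06), in the same libraries in which its repressors were higher. CLOCK (chromosome 4, 55427903 to 55547138, minus strand), its partner, was at 44.1, 47.0 and 44.3 CPM with anticarin-beta, against 29.5, 28.3 and 29.5 CPM with vehicle. The difference of 1.55-fold (0.63 ± 0.07, edgeR adjusted p = 5.75e-06) was small but exceeded the spread of either group. With library totals alone it was at 0.21 on the log2 scale and still called (edgeR adjusted p = 0.0209), where the median of all genes was −0.48.

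DBP (chromosome 19, 48630030 to 48637438, minus strand), a PAR bZIP factor that CLOCK and ARNTL are known to drive in liver, did not pass the test. It was at 7.55, 7.58 and 6.94 CPM with anticarin-beta and at 9.11, 7.84 and 6.04 CPM with vehicle, so that the anticarin-beta values lay inside the vehicle range. Its log2 fold change was −0.06 ± 0.17 (SE; edgeR adjusted p = 0.764), with a 95% interval from −0.43 to 0.31. With library totals alone it was called lower, at −0.48 (edgeR adjusted p = 0.0238), which equals the median of all genes under that scaling. DBP shares 661 of its 6544 exonic bases with SPHK2 on the opposite strand, which was at 12.7 ± 0.55 CPM with anticarin-beta and 25.6 ± 3.08 CPM with vehicle (SD, n = 3 each). Any part of those reads in the DBP counts was not tested.

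**Figure D2:**
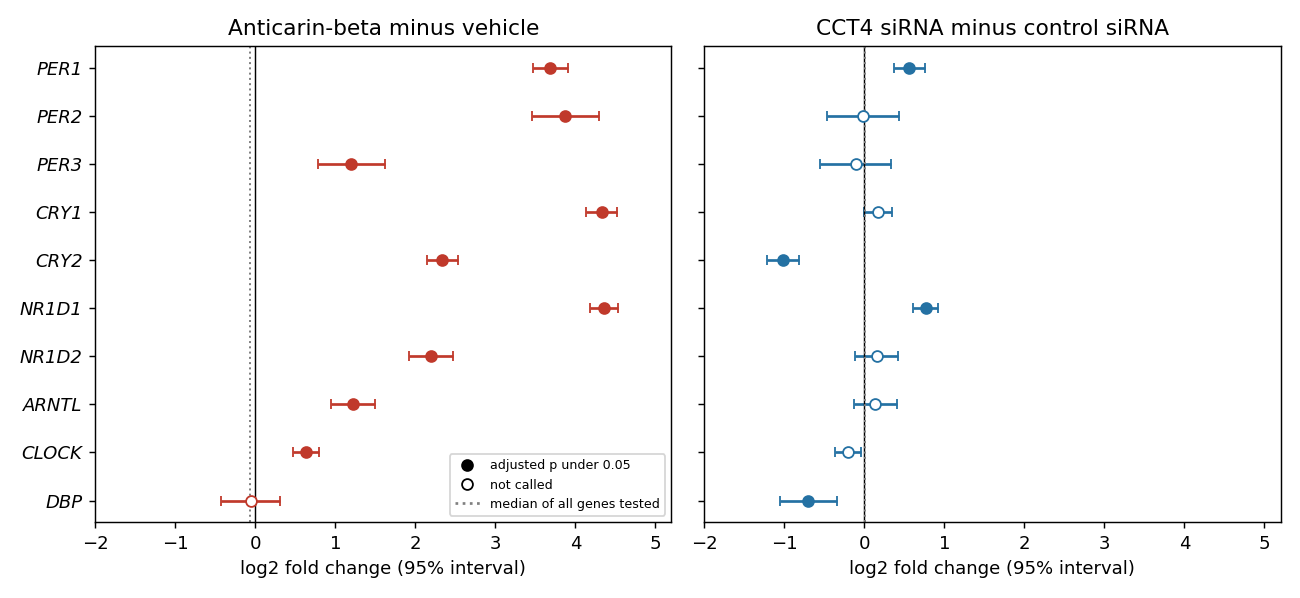
Log2 fold change of each clock gene with its 95% interval, anticarin-beta over vehicle on the left and libraries labelled CCT4 siRNA over control siRNA on the right, on the same axis. Filled points passed the test, open points did not, and the dotted line is the median of all genes tested. On the left 9 of 10 points lie to the right of 0 and do not reach it, and on the right PER1 and NR1D1 lie above 0 and CRY2 and DBP below it.

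The members split in the libraries labelled CCT4 siRNA. PER1 and NR1D1 were higher than with control siRNA, CRY2 and DBP were lower, and 6 did not pass. Over all genes tested 10.7% were called higher, 9.04% lower and 19.7% in either direction, and the members' 2 higher and 2 lower of 10 read against these shares. The median of the members was 0.06, beside 0.01 over all genes, and 5 members had no overlap between the groups, against 41.8% of all genes. With library totals alone 902 genes were called higher and 2800 lower, in place of 1892 and 1601. The summed osteoblast-lineage markers ranged from 2012 to 2153 CPM in the libraries labelled CCT4 siRNA and from 1582 to 1624 CPM with control siRNA, without overlap. The summed epithelial markers (116 to 137 CPM in the libraries labelled CCT4 siRNA and 112 to 117 CPM with control siRNA), blood markers (0 to 0.193 CPM in the libraries labelled CCT4 siRNA and 0 to 0.358 CPM with control siRNA) and endothelial markers (12.4 to 15.3 CPM in the libraries labelled CCT4 siRNA and 12.3 to 14.5 CPM with control siRNA) overlapped. Within the epithelial list KRT18 did not overlap, while KRT8 did. KRT18 was at 74.4 to 92.2 CPM in the libraries labelled CCT4 siRNA and 66.9 to 70.2 CPM with control siRNA. The part of the markers in the result was not tested.

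PER1 was at 71.5, 73.6 and 67.1 CPM in the libraries labelled CCT4 siRNA, against 46.8, 48.6 and 48.4 CPM with control siRNA, 1.48-fold higher (log2 fold change 0.56 ± 0.09, SE; edgeR adjusted p = 0.00118). NR1D1 was at 156, 149.97 and 151 CPM in the libraries labelled CCT4 siRNA and at 95.3, 85.6 and 88.1 CPM with control siRNA, 1.70-fold higher (0.77 ± 0.07, edgeR adjusted p = 2.60e-05). Both groups were tight and lay apart for these genes. THRA, which overlaps NR1D1, was at 90.5 ± 5.26 CPM in the libraries labelled CCT4 siRNA and 87.5 ± 9.96 CPM with control siRNA. Their relatives did not pass: PER2 was at 3.07, 2.15 and 2.89 CPM in the libraries labelled CCT4 siRNA and at 2.498, 2.85 and 2.86 CPM with control siRNA, with overlap and a 95% interval of the log2 fold change from −0.47 to 0.43. NR1D2 was at 35.0, 44.5 and 48.7 CPM in the libraries labelled CCT4 siRNA and at 38.1, 41.9 and 35.2 CPM with control siRNA (0.15 ± 0.12, edgeR adjusted p = 0.429).

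CRY2 moved opposite to its anticarin-beta change. It was at 7.78, 7.40 and 7.97 CPM in the libraries labelled CCT4 siRNA, against 15.4, 15.03 and 16.4 CPM with control siRNA, a log2 fold change of −1.02 ± 0.09 (SE; edgeR adjusted p = 2.13e-05), or 2.02-fold lower. Of all genes tested 97.3% had a higher log2 fold change. CRY1 did not pass, at 22.6, 24.9 and 24.9 CPM in the libraries labelled CCT4 siRNA and 22.6, 21.4 and 20.1 CPM with control siRNA (0.17 ± 0.08, edgeR adjusted p = 0.157). The log2 ratio of CRY1 to CRY2 averaged 1.64 ± 0.11 in the libraries labelled CCT4 siRNA and 0.45 ± 0.14 with control siRNA (SD, n = 3 each). The ratio was thus higher both with anticarin-beta than with vehicle and in the libraries labelled CCT4 siRNA than with control siRNA, beside a larger increase of CRY1 than of CRY2 with the compound and a decrease of CRY2 in the libraries labelled CCT4 siRNA.

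DBP was at 6.34, 7.65 and 6.69 CPM in the libraries labelled CCT4 siRNA, against 12.8, 11.2 and 9.60 CPM with control siRNA, a log2 fold change of −0.70 ± 0.17 (SE; edgeR adjusted p = 0.0120). Its call was lost without control siRNA library 1, the highest of those libraries, at −0.59 (edgeR adjusted p = 0.0534). SPHK2, its overlapping neighbour, was at 22.8 ± 2.29 CPM in the libraries labelled CCT4 siRNA and 17.1 ± 0.73 CPM with control siRNA (SD, n = 3 each). CLOCK was at 24.4, 25.6 and 23.0 CPM in the libraries labelled CCT4 siRNA and at 29.1, 28.1 and 27.3 CPM with control siRNA, values that did not overlap and did not pass (−0.21 ± 0.07, edgeR adjusted p = 0.0692). It was called lower with upper-quartile scaling (−0.23, edgeR adjusted p = 0.0461) and with library totals alone (−0.34, edgeR adjusted p = 0.00816). ARNTL (0.14, 95% interval −0.13 to 0.41) and PER3 (−0.11, −0.56 to 0.33) overlapped between the groups.

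The difference between the responses was tested as a contrast, the change with anticarin-beta minus the change in the libraries labelled CCT4 siRNA. It was positive and called for all 10 members, while 27.5% of all genes tested were called in that direction, 32.4% in the other and 59.9% in either. The median of the members was 2.58, beside −0.09 over all genes. Under library totals 3724 genes were called higher and 7283 lower, in place of 4866 and 5744. The largest differences were those of CRY1 (log2 4.15 ± 0.12, SE; edgeR adjusted p = 1.67e-10), PER2 (3.90 ± 0.28), NR1D1 (3.59 ± 0.10) and CRY2 (3.35 ± 0.13). For DBP the difference was 0.64 ± 0.24 (edgeR adjusted p = 0.0333), made of a change of −0.06 with the compound and of −0.70 in the libraries labelled CCT4 siRNA. That call was lost with upper-quartile scaling (0.55), library totals alone (0.35) and no filter on low counts (0.62). It was also lost without vehicle library 2 (0.63) or 3 (0.48), anticarin-beta library 1 (0.62) or 2 (0.62), control siRNA library 1 (0.53) or 2 (0.63), or CCT4 siRNA library 1 (0.58) or 3 (0.61). Compound and siRNA differ in agent, time and transfection, which cannot be told apart in this difference.

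The control groups themselves differed. PER1 was at 47.9 ± 0.96 CPM with control siRNA and 11.3 ± 1.48 CPM with vehicle (SD, n = 3 each), 4.25-fold higher (log2 fold change 2.09 ± 0.10, SE; edgeR adjusted p = 4.52e-09). NR1D1 was at 89.7 ± 5.01 CPM with control siRNA and 13.1 ± 1.06 CPM with vehicle, 6.86-fold higher (2.78 ± 0.08, edgeR adjusted p = 7.77e-11). CRY1 (0.45), CRY2 (0.41), NR1D2 (0.54), DBP (0.55) and ARNTL (0.34) were called higher too, with edgeR adjusted p from 0.000594 to 0.0399. PER2 (0.26), PER3 (−0.05) and CLOCK (−0.05) did not pass. In all, 7 members were higher and 0 lower, and 6 did not overlap, where 24.8% of all genes tested were called higher, 23.6% lower, 48.4% in either direction, and 55.9% did not overlap. The call of ARNTL was lost without vehicle library 1 (0.27) or 2 (0.27), control siRNA library 1 (0.30) or 3 (0.32), anticarin-beta library 1 (0.34) or 2 (0.34), or CCT4 siRNA library 1 (0.34), and that of DBP without vehicle library 3 (0.40) or control siRNA library 1 (0.44). Experiment, transfection and collection time cannot be told apart here. The summed osteoblast-lineage markers ranged from 1582 to 1624 CPM with control siRNA and from 6519.6 to 8089.8 CPM with vehicle, the epithelial from 112 to 117 CPM with control siRNA and from 131 to 156 CPM with vehicle, and the blood from 0 to 0.358 CPM with control siRNA and from 0.48 to 1.28 CPM with vehicle. COL1A1 ranged from 500.5 to 561 CPM with control siRNA and from 3481 to 3961 CPM with vehicle, and COL1A2 and SPARC were lower too. ALPL went the other way, at 17.2 to 20.1 CPM with control siRNA and 8.21 to 9.89 CPM with vehicle. The summed endothelial markers ranged from 12.3 to 14.5 CPM with control siRNA and from 6.34 to 8.45 CPM with vehicle. PECAM1 was higher with control siRNA (11.6 to 13.9 CPM) than with vehicle (3.94 to 5.03 CPM). CDH5 was lower, at 0.444 to 0.769 CPM against 2.23 to 3.05 CPM, and VWF overlapped. The part of the markers in the result was not tested.

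Set against exonic length, the order of the members changed between groups. With anticarin-beta NR1D1 led at 96.6 CPM per kb, followed by CRY1 at 61.9, NR1D2 at 20.8 and PER1 at 20.7 CPM per kb, the last pair overlapping in range. CRY2 stood at 9.59, ARNTL at 5.58, PER2 at 4.88, CLOCK at 3.84, DBP at 1.12 and PER3 at 0.90 CPM per kb, with ARNTL and PER2 overlapping. With vehicle the genes lay closer, NR1D1 at 4.72 and NR1D2 at 4.52 CPM per kb overlapping at the top, and PER3 at 0.39 and PER2 at 0.33 CPM per kb overlapping at the bottom. NR1D1 led in the libraries labelled CCT4 siRNA and with control siRNA at 55.0 and 32.3 CPM per kb, PER1 followed at 10.1 and 6.85 CPM per kb, and NR1D2 came next at 7.34 and 6.59 CPM per kb. With control siRNA the ranges of PER1 and NR1D2 overlapped. PER2 and PER3 overlapped at the bottom in every group except with anticarin-beta.

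The balance within pairs of related genes was compared as the log2 ratio of their counts in each library, which does not depend on scaling. With 3 libraries a group an exact two-sided permutation test cannot go below p = 0.1, and over the 10 tests made that value adjusts to 0.143, so none can pass. CRY1 over CRY2 and NR1D1 over NR1D2 did not overlap between the groups in either experiment (exact p = 0.1 each). NR1D1 over NR1D2 differed by 2.15 between anticarin-beta and vehicle, and by 0.62 between the libraries labelled CCT4 siRNA (1.85 ± 0.27) and control siRNA (1.23 ± 0.17; SD, n = 3 each). PER1 over PER2 overlapped with the compound, with a difference of −0.22 (exact p = 0.3), and was higher by 0.59 in the libraries labelled CCT4 siRNA (exact p = 0.1).

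ARNTL and CLOCK have the paralogues ARNTL2 and NPAS2, which can stand in for them. ARNTL over ARNTL2 averaged 0.84 ± 0.64 with anticarin-beta and −1.40 ± 0.07 with vehicle (SD, n = 3 each; exact p = 0.1), so ARNTL had more counts than ARNTL2 only with the compound. ARNTL2 itself was at 15.4, 36.2 and 16.3 CPM with anticarin-beta and at 38.4, 40.8 and 47.6 CPM with vehicle (log2 fold change −0.90 ± 0.24, SE; edgeR adjusted p = 0.00454), with anticarin-beta library 2 apart from the other libraries of its group; without that library the log2 fold change was −1.41. CLOCK over NPAS2 was lower with anticarin-beta (1.67 ± 0.10) than with vehicle (2.16 ± 0.57; exact p = 0.1), a difference of −0.49 that was −0.16 without vehicle library 1, and NPAS2 was 2.09-fold higher (edgeR adjusted p = 0.000886). In the siRNA experiment both ratios overlapped between the groups.

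**Figure D3:**
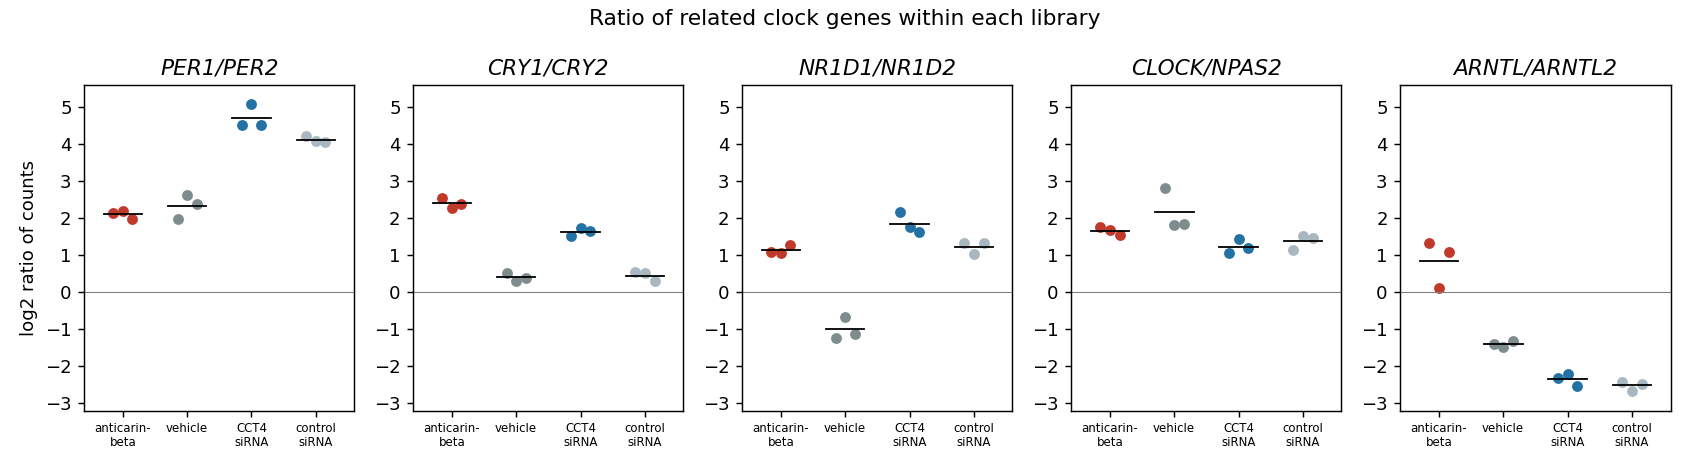
Log2 ratio of the counts of related clock genes within each library. Points are libraries, lines are group means and 0 marks equal counts. CRY1 over CRY2 and NR1D1 over NR1D2 lie higher with anticarin-beta than with vehicle and in the libraries labelled CCT4 siRNA than with control siRNA, and ARNTL over ARNTL2 lies above 0 only with anticarin-beta.

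Of 48 other genes linked to the clock in 5 lists, 46 were tested; RORB and CIART were too low. With anticarin-beta 28 of the 46 were higher and 12 lower (median 0.67); the counts were 20 and 15 under library totals. Of the same 46, 10 were higher and 5 lower in the libraries labelled CCT4 siRNA (median 0.02), and with library totals alone 3 and 8. The 10 became 6 without control siRNA library 1 or 3 or CCT4 siRNA library 2 or 3, and 5 without control siRNA library 2. The 5 lower became 3 without control siRNA library 1 or CCT4 siRNA library 1. These stand against 34.9% higher and 38% lower of all genes for the compound, and 10.7% and 9.04% for the libraries labelled CCT4 siRNA. The counts of each list below are to be read against the same shares.

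Among 9 tested clock transcription factors outside the members, 5 were higher, 3 lower and 1 not called with anticarin-beta (median 0.77), and 2 were higher and 0 lower in the libraries labelled CCT4 siRNA (median −0.03). TEF, a PAR bZIP factor like DBP, was at 61.1, 60.5 and 63.9 CPM with anticarin-beta, against 12.0, 7.54 and 7.81 CPM with vehicle (log2 fold change 2.76 ± 0.16, SE; edgeR adjusted p = 6.47e-09). HLF, the third PAR bZIP factor, was higher by 0.68 ± 0.26 (edgeR adjusted p = 0.0299), on only 20 to 40 counts in each of these libraries. Its call was not followed under the other settings. NFIL3, which represses D-box genes, was at 88.3, 89.8 and 98.9 CPM with anticarin-beta and at 25.9, 39.0 and 39.6 CPM with vehicle (1.41 ± 0.13). TEF (0.57, edgeR adjusted p = 0.0228) and NFIL3 (0.43, edgeR adjusted p = 0.0297) were also called higher in the libraries labelled CCT4 siRNA, and both calls were lost with library totals alone (0.44 and 0.30). The call of TEF was lost without control siRNA library 1 (0.50) or 2 (0.59) or CCT4 siRNA library 3 (0.50), and that of NFIL3 without any 1 of the 6 libraries of the siRNA experiment (0.42 to 0.44).

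RORA, an activator of ARNTL that competes with the NR1D proteins, was at 80.003, 81.1 and 81.9 CPM with anticarin-beta and at 13.6, 17.8 and 25.0 CPM with vehicle (2.11 ± 0.56, SE; edgeR adjusted p = 0.00452). Its counts were unstable elsewhere, at 96.4, 98.1 and 20.3 CPM in the libraries labelled CCT4 siRNA and 21.5, 88.6 and 84.0 CPM with control siRNA. RORA was singled out for that spread after its values were seen, and HLF and TIMELESS were also added after theirs were seen. BHLHE40, an E-box repressor, was called lower by 0.29 on the log2 scale with anticarin-beta although its values overlapped. That call was lost with RLE scaling, DESeq2, limma-voom and the groups compared alone, and without vehicle library 2 (−0.25) or 3 (−0.19) or any 1 anticarin-beta library (−0.31 to −0.26); without vehicle library 1 it was −0.45. BHLHE41 did not pass in either comparison (0.77, edgeR adjusted p = 0.0600, and −0.76, edgeR adjusted p = 0.238), but was called higher with the compound under RLE scaling (0.83), limma-voom (0.94) and the replicate block (0.83) and without vehicle library 3 (1.06). Without vehicle library 1 it was at 0.39 and not called. CIART had 13 counts over the anticarin-beta libraries and 0 over the vehicle libraries and was not tested.

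The list of clock protein kinases and genes of the ubiquitin system numbered 12. Of these, 7 were higher, 4 lower and 1 not called with anticarin-beta (median 0.55). In the libraries labelled CCT4 siRNA 1 was higher and 2 lower (median −0.02). BTRC, which marks PER proteins for destruction, was at 158 ± 2.59 CPM with anticarin-beta and 50.3 ± 0.53 CPM with vehicle (SD, n = 3 each), 3.14-fold higher. GSK3B (2.24-fold) and CSNK1D (1.98-fold), kinases of clock proteins, were higher too. In the libraries labelled CCT4 siRNA BTRC (−0.46, edgeR adjusted p = 0.000877) and GSK3B (−0.27, edgeR adjusted p = 0.0137) were lower and CSNK1D (0.30, edgeR adjusted p = 0.00625) higher; the GSK3B call was lost without control siRNA library 1 (−0.25) or CCT4 siRNA library 1 (−0.26) or 3 (−0.26), and that of CSNK1D with library totals alone (0.16).

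Of 12 co-regulators 7 were higher, 2 lower and 3 not called with anticarin-beta (median 0.73), and 3 higher and 1 lower in the libraries labelled CCT4 siRNA (median 0.08). The acetyltransferase genes EP300 (3.64-fold) and CREBBP (3.28-fold), whose proteins CLOCK and ARNTL recruit, were higher with the compound, and SFPQ, a PER partner, 1.77-fold. WDR5, a histone methylation subunit found with PER, was 4.72-fold lower, at 17.3 ± 1.80 CPM with anticarin-beta and 81.8 ± 6.59 CPM with vehicle (SD, n = 3 each). TIMELESS was the other lower one (−1.97 ± 0.11, SE). EP300 (0.37), CREBBP (0.28) and SFPQ (0.42) were called higher in the libraries labelled CCT4 siRNA, and all 3 calls were lost with library totals alone (0.24, 0.15 and 0.29). The call of EP300 was lost without control siRNA library 2 (0.37) or 3 (0.36) or CCT4 siRNA library 1 (0.35) or 2 (0.36), and that of CREBBP without any 1 of the 6 libraries of the siRNA experiment (0.26 to 0.30).

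The CREB route, through which PER1 is known to be induced, had 5 of 6 genes higher and 0 lower with anticarin-beta (median 0.98). Of all genes tested 34.9% were higher and 38% lower. In the libraries labelled CCT4 siRNA 2 were higher and 1 lower (median 0.03), against 10.7% and 9.04% of all genes. SIK1, a kinase that holds back the CREB coactivators, was at 40.5, 41.3 and 40.3 CPM with anticarin-beta and at 7.73, 8.87 and 7.86 CPM with vehicle (log2 fold change 2.32 ± 0.09, SE). CREB1 was 3.32-fold and CRTC2, a coactivator, 2.14-fold higher. SIK1 was lower in the libraries labelled CCT4 siRNA (−0.54, edgeR adjusted p = 0.00124) while CREB1 was higher (0.47, edgeR adjusted p = 0.00588). The call of CRTC2 there (0.25, edgeR adjusted p = 0.0462) was lost in 15 alternatives, among them the omission of any 1 library of the siRNA experiment (0.22 to 0.29), vehicle library 2 (0.25) or any 1 anticarin-beta library (0.25).

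Of 7 output genes 4 were higher and 3 lower with anticarin-beta (median 0.29), and 2 were higher and 1 lower in the libraries labelled CCT4 siRNA (median 0.15). TSC22D3, a glucocorticoid-induced gene with a daily rhythm, fell to 1.66 ± 0.38 CPM with anticarin-beta, against 5.12 ± 0.71 CPM with vehicle (SD, n = 3 each). LEO1, a subunit of the PAF1 complex, was lower in both comparisons (−1.37 and −0.58). TSPAN4 was higher in both (0.55 and 0.38), though its compound call was lost with library totals alone (0.13).

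**Figure D4:**
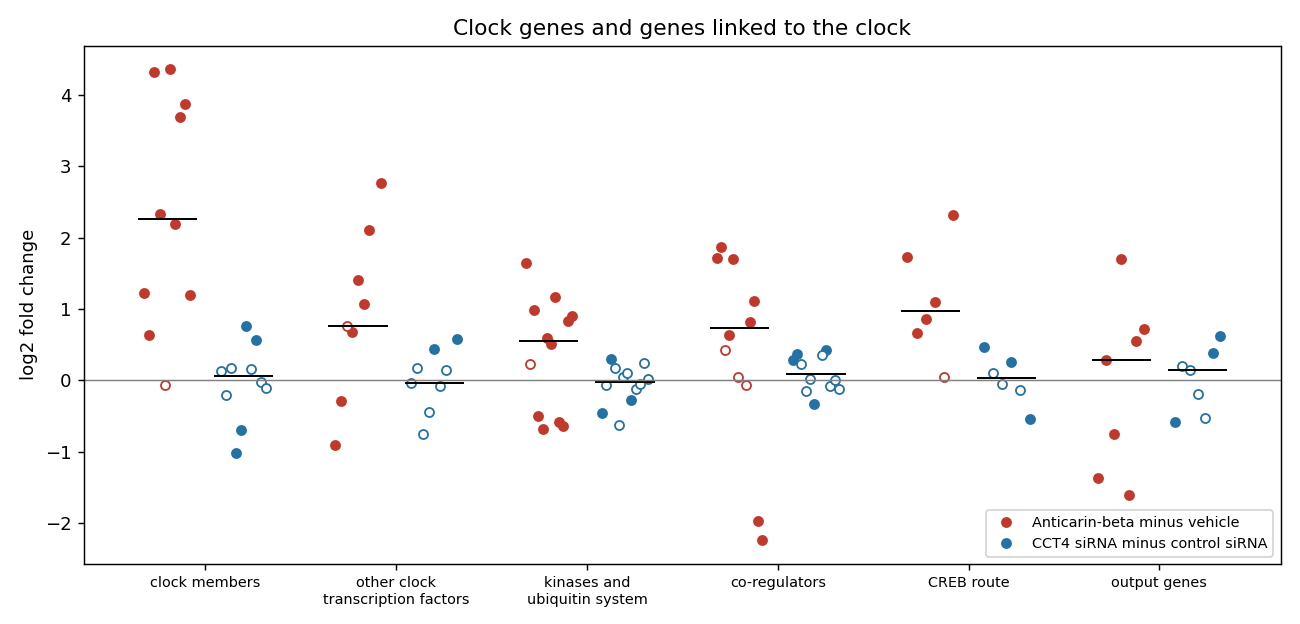
Log2 fold changes of the clock members and of 5 further lists of clock-linked genes, for anticarin-beta over vehicle and for libraries labelled CCT4 siRNA over control siRNA. Filled points passed the test, open points did not, and lines are list medians. The members have a median of 2.27 with the compound, above the medians of the other lists, which lie between 0.29 and 0.98. Members and lists were chosen with earlier results of these data known. Medians and counts are over all tested genes of a list, and not every gene is drawn.

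Genes with the pattern most like that of a member over the 12 libraries were listed by Pearson's r of log2 CPM. The libraries fall into 4 groups and share their scaling, so r here describes the group pattern only. Nearest to NR1D1 were NFKB2 and ETV3, to PER1 ELL and YOD1, to CRY1 VGLL3 and DLC1, and to CRY2 GPATCH2 and DAB2, with r from 0.993 to 0.999. Among the nearest to ARNTL was SUSD6. Nearest to CLOCK were ALDH6A1 and CBLB, to PER2 ATG12 and MED13, to PER3 PWWP2A and ATP6V1D, and to NR1D2 AMMECR1 and NRIP1. DBP had no gene with r above 0.9, its nearest being POLR1B and TSG101, whereas 4.55% to 13.3% of the genes compared exceeded 0.9 for the other members.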

How the data were processed

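The authors deposited raw counts of 50868 genes in 12 libraries in 1 table, not normalized and not pooled. Per the labels' protocols a TruSeq stranded kit was used. The submitters' processing notes name STAR 2.5.2a, featureCounts 1.5.0, Subread and hg38. Neither the annotation, nor the use of strand, nor the treatment of multi-mapped reads is stated in these sources. Without strand, genes overlapping on opposite strands share reads.

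Counts were tested with edgeR 4.0.16 (R 4.3.3), quasi-likelihood test, two-sided, TMM scaling, filterByExpr, 1 mean per group over all 12 libraries (8 residual degrees of freedom), Benjamini-Hochberg adjustment over 17717 genes and a threshold of 0.05. The prior count of fold changes was 0.125, and their SE follows from the F statistic. Code was tested on simulated data in which far fewer genes changed than were called here with the compound. Replicates of every group differed by more than sampling noise (chi-square over its degrees of freedom, 8.48 to 26.5) and were counted singly. Ratios of related genes used counts plus 0.5 and exact permutation tests.

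Positions and exon overlaps come from GENCODE 29, which held 98.5% of the identifiers, and promoters from RefSeq, GRCh38.p14. The members and lists were chosen with earlier results of these data known. Named were the members, CCT4, per further list the 3 smallest p with the compound and up to 2 called for the siRNA libraries, 7 fixed genes, and 2 nearest genes per member by Pearson's r (mean of at least 5 CPM). Settings varied were the scaling (RLE, upper quartile, library totals), the filter (none, or 1 CPM in 3 libraries), the test (DESeq2 1.42.0, or limma-voom from limma 3.58.1), the libraries fitted, a replicate block, the threshold (0.01), the ratio pseudocount (1) and the omission of each library. Some genes of the lists and of the nearest genes are counted but not reported by name here.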

Additional observations from a re-analysis of the deposited data

How the results depend on the processing

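Of 830 values of member fold changes under the alternatives, 792 kept their direction and side of the threshold. Of the rest, 25 lost a call, 3 gained one and 10 changed sign. All 70 values of the ratios of related genes kept their sign, those with a pseudocount of 1 among them. Each moved by less than the pooled SD of the groups compared. The 9 members higher with anticarin-beta were 9 under each alternative. With library totals alone 1 member, DBP, was lower with the compound. In the libraries labelled CCT4 siRNA 1 member in place of 2 was lower at a threshold of 0.01, and 1 to 2 when single libraries were left out. The other list genes there came to 3 higher and 8 lower under library totals alone, to 3 and 3 at 0.01, and ranged from 5 to 12 higher and from 3 to 5 lower without single libraries. Genes called there numbered 3493, or 1517 at 0.01 and 2202 to 4026 without single libraries.

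Small changes that did not pass changed sign. DBP with the compound was at 0.0034 with RLE scaling, 0.0033 with DESeq2, and ranged from −0.22 to 0.074 (without vehicle library 1) when single libraries were left out. In the libraries labelled CCT4 siRNA without single libraries PER2 ranged from −0.12 to 0.12 (0.010 and 0.015 without control siRNA library 2 and 3), PER3 from −0.21 to 0.015, and NPAS2 from −0.18 to 0.078 (without control siRNA library 1). Between control siRNA and vehicle PER3 was at 0.0044 and CLOCK at 0.0050 with library totals alone, and PER3 ranged from −0.14 to 0.075 (without vehicle library 1) when single libraries were left out. The cause was not tested.

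Same-numbered replicates hardly deviated together (correlation of deviations from −0.030 to 0.026). Between anticarin-beta and vehicle another number matched better each time. In the siRNA experiment the same number matched best each time. It gave 0.026, 0.018 and 0.014, against −0.012, −0.0031 and −0.0039 for the best other number. Values this near 0 cannot decide whether the numbers pair the samples. A replicate block gave 12756 genes called with the compound, 3036 for the libraries labelled CCT4 siRNA, 10362 for the difference and 8253 between the control groups. The members numbered 9 higher and 0 lower, 2 and 2, 10 and 0, and 6 and 0 with the block, where ARNTL lost its call between the control groups. PER2, PER3 and DBP have the lowest counts, and depth limits what can be seen for them.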
